A study of Rattus norvegicus with 31 samples.

Results

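Toll-like receptors are the sensors with which cells of the liver detect bacterial and viral molecules. The receptor genes Tlr2, Tlr3, Tlr4, Tlr5, Tlr6, Tlr7 and Tlr9 and the adaptor gene Myd88 were taken by symbol from the count table of a rat liver RNA-Seq study. All 8 genes were found among the 26312 genes of the table, and all 8 were among the 19904 genes with a summed count of at least 2 that were tested. Their Ensembl identifiers in the table are ENSRNOG00000009822 for Tlr2, ENSRNOG00000021726 for Tlr3, ENSRNOG00000010522 for Tlr4, ENSRNOG00000022067 for Tlr5, ENSRNOG00000002161 for Tlr6, ENSRNOG00000004249 for Tlr7, ENSRNOG00000048161 for Tlr9 and ENSRNOG00000013634 for Myd88.

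The livers came from 31 young adult female Wistar (Crl:WI) rats that received a pesticide, a binary mixture or the vehicle, an aqueous carboxymethyl-cellulose suspension, by oral gavage on 28 days. The pesticides were the neonicotinoid insecticides thiacloprid (THI) and clothianidin (CTD) and the azole fungicide imazalil (IMZ). There were 8 vehicle controls, 4 rats on THI at 108 mg/kg bw/day, 4 on IMZ at 93 mg/kg bw/day and 3 on CTD at 288 mg/kg bw/day. The study marks this CTD group as having lost animals, killed while moribund. The mixture groups had 4 rats each and received THI + IMZ at 54 and 46 mg/kg bw/day, THI + CTD at 54 and 134 mg/kg bw/day, or IMZ + CTD at 46 and 135 mg/kg bw/day. No transgene, infection or immune stimulus was part of the design, and each library held a piece of whole liver, so all cell types of the organ contributed RNA.

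The receptors differ in what they bind. Tlr2 pairs with Tlr6 at the cell surface to bind bacterial lipopeptides, Tlr4 binds lipopolysaccharide together with Ly96 and Cd14, and Tlr5 binds flagellin. Tlr3, Tlr7 and Tlr9 sit in endosomes and bind duplex RNA, single-stranded RNA and unmethylated CpG DNA. Myd88 links all of these receptors except Tlr3 to the Irak kinases and NF-kB, whereas Tlr3 uses the adaptor Ticam1. The liver receives gut-derived bacterial products through the portal vein, and Kupffer cells, the resident macrophages, carry many of these receptors.

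The upstream sequences of Tlr3 and Tlr7 are shown because Tlr3 was the receptor gene that passed the test and Tlr7 is the other RNA receptor among the 8 members. Both are the 250 bases before the annotated transcription start in RefSeq, build GRCr8, read 5′ to 3′ on the plus strand, at chr16:53554666-53554915 and chrX:30644176-30644425. All 8 members matched an entry in the RefSeq promoter table. Capitals mark matches to GAGGAA, the core bound by the myeloid factor PU.1, or to GGNNNTTCC, a loose part of the kappa B site, on either strand.
Tlr3: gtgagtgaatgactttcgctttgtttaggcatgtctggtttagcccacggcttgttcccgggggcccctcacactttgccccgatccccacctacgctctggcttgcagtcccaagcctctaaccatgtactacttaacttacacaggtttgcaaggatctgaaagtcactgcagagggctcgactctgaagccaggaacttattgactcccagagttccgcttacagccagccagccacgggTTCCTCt
Tlr7: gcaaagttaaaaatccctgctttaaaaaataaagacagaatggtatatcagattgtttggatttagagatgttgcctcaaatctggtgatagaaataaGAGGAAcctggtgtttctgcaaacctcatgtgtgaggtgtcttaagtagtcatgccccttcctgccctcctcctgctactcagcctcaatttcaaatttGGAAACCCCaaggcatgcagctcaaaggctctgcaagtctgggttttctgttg
In Tlr3 the capitals are GAGGAA on the minus strand, with the first base of the match at -7 from the start. In Tlr7 they are GAGGAA on the plus strand at -152 and GGNNNTTCC on the minus strand at -53. GAGGAA was also found upstream of Tlr4, Tlr6 and Tlr9, GGNNNTTCC on both strands at overlapping positions upstream of Tlr2, and GAAANNGAA, the core of the interferon-stimulated response element, upstream of Myd88. Tlr5 held none of these letters. Of 33469 promoters of the same length, 23.3% held GAGGAA, 15.4% held GGNNNTTCC and 8.12% held GAAANNGAA on either strand, so such matches are common.

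Levels are given in CPM, the read count of a gene per 1000000 reads of its library, with library sizes scaled by the trimmed mean of M-values (TMM). Because CPM does not correct for transcript length, levels are compared between rats and not between genes. Total counts ranged from 32726300 to 101230067 reads in the controls and from 31820322 to 54791509 reads in the treated rats. The tissue label was checked with 8 hepatocyte markers, which summed to 164321 to 251546 CPM over all groups, with none at 0 in any group. Differences are log2 fold changes of treated against control rats with their standard error (SE) from edgeR's quasi-likelihood test in a single model of all 7 groups, and the Benjamini-Hochberg adjustment covered the 19904 tested genes, with a threshold of 0.05. The labels name separate rats, so the spread is that between animals. Of the members, 3 overlap another RefSeq gene on GRCr8. The counts were made on Rnor_5.0, where these overlaps were not examined. The strand setting of the counting is not given in the sources used here, and it would not separate genes on the same strand. Whether reads of overlapping genes were kept apart is therefore not known.

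Tlr3 transcripts were higher in the livers of rats treated with CTD alone, while all rats given THI alone or IMZ + CTD lay under the control median. In the 8 controls Tlr3 ranged from 28.8 to 37.5 CPM with a median of 35.3 CPM. The 3 CTD rats had 39.9, 44.9 and 44.4 CPM, all above the highest control. The log2 fold change was 0.31 (SE 0.11, 95% interval 0.10 to 0.53; 1.24-fold), with an edgeR adjusted p of 0.0445, and Tlr3 was the only member that passed the test against control in any treatment, beside 12.7% of all tested genes in CTD. In whole liver, a change in the number of cells of a type and a change in RNA per cell cannot be told apart.

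The other groups placed Tlr3 on both sides of the controls. THI + CTD rats had 44.2, 43.3, 39.6 and 30.2 CPM, so 3 of 4 lay above every control and the remaining rat lay within the control range. THI rats had 31.6, 25.5, 28.0 and 29.2 CPM and IMZ rats 28.2, 30.6, 37.3 and 27.9 CPM. Both groups lay mostly in the lower part of the control range or under it. THI + IMZ rats had 26.9, 34.0, 31.8 and 35.4 CPM, and IMZ + CTD rats had 25.3, 29.6, 32.7 and 29.8 CPM. Neither of these mixture groups reached the highest control.

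By group mean, Tlr3 followed the order CTD (43.1 ± 2.76 CPM, SD, n = 3), THI + CTD (39.3 ± 6.38, n = 4), control (34.6 ± 2.82, n = 8), THI + IMZ (32.0 ± 3.74, n = 4), IMZ (31.0 ± 4.34, n = 4), IMZ + CTD (29.3 ± 3.05, n = 4) and THI (28.6 ± 2.53, n = 4). Each neighbour in this order overlapped the next in its range of rats. The ends of the order did not overlap: every CTD rat lay above every rat of the control, THI, IMZ, THI + IMZ and IMZ + CTD groups. The test that the 6 treated groups share a single mean gave an edgeR adjusted p of 0.00358 for Tlr3, against 5.82% of all tested genes called. No other member passed that test, and its adjusted p for Tlr3 stayed between 0.000552 and 0.0152 in the 31 fits that lacked 1 rat each.

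The call against control was less firm than the difference among treatments. The edgeR adjusted p rose to 0.0624, 0.168 or 0.131 without CTD replicate 1, 2 or 3, and to 0.0723, 0.0604, 0.0606, 0.0506 or 0.0515 without Control replicate 2, 3, 5, 7 or 8. The log2 fold change stayed between 0.28 and 0.37 in the 31 fits without 1 rat, and the call held in the other 23. The unadjusted p of Tlr3 was under 0.05 in THI (log2 fold change -0.28, SE 0.10, adjusted p 0.338) and IMZ + CTD (-0.24, SE 0.10, adjusted p 0.278) as well, in the opposite direction. On GRCr8 the Tlr3 gene shares 33 bases with a long non-coding RNA gene.

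**Figure D1:**
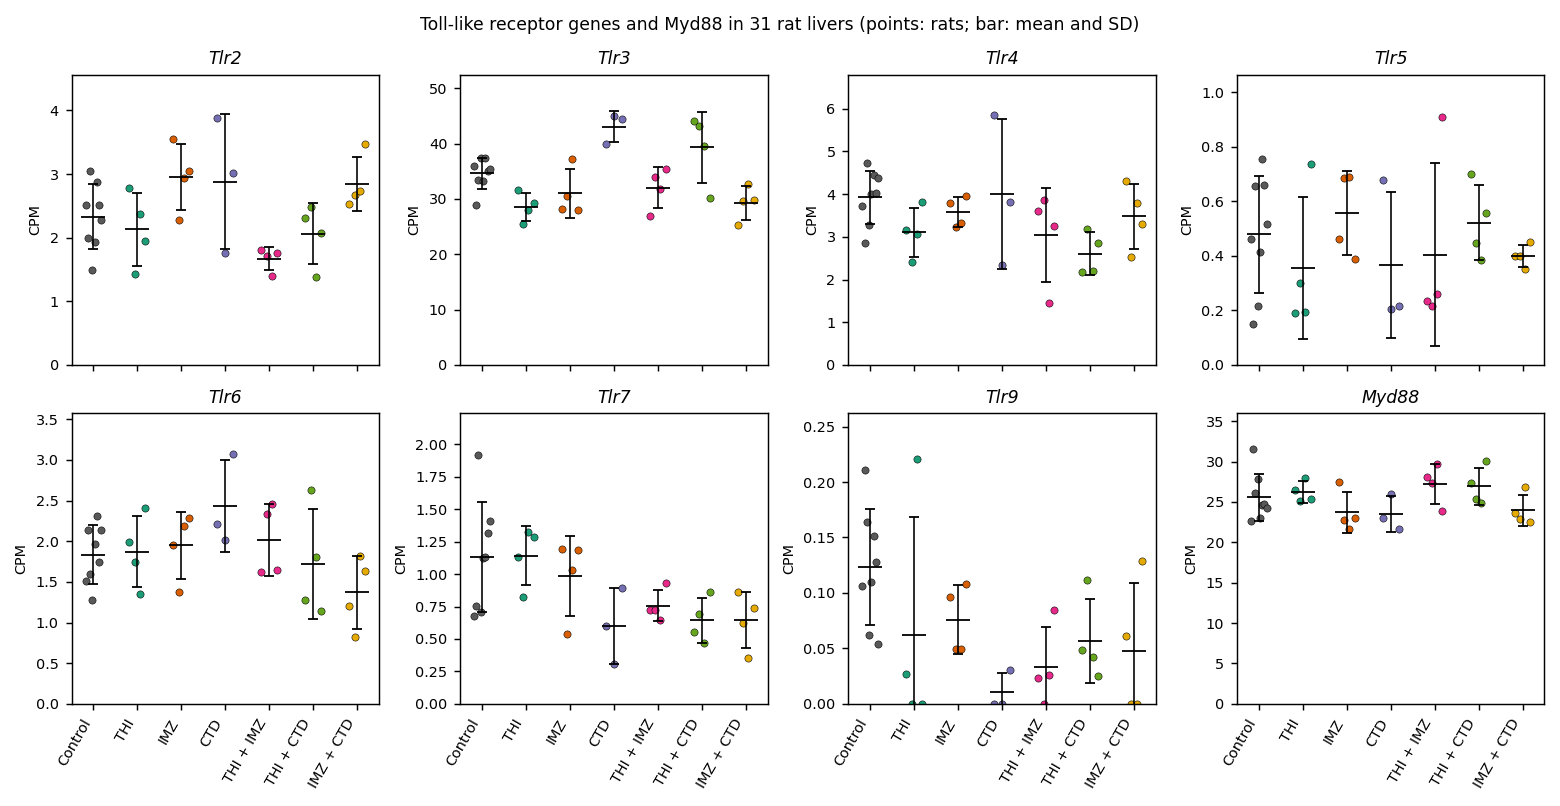
CPM of the 8 genes in each of the 31 rats by group; points are rats, the bar and whiskers are the group mean and SD, and every vertical axis starts at 0. The 3 CTD rats lie between 39.9 and 44.9 CPM for Tlr3, above all controls, while Myd88 lies between 21.6 and 31.6 CPM in every group.

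Tlr7, the receptor for single-stranded RNA, had its lowest mean levels in the 3 groups that received CTD, but in no group did the difference pass the adjusted threshold. Controls ranged from 0.675 to 1.92 CPM, with a median of 1.13 CPM. The CTD rats had 0.598, 0.310 and 0.892 CPM, of which 2 lay under every control. The log2 fold change was -0.91 (SE 0.35, 95% interval -1.62 to -0.21), with an edgeR adjusted p of 0.0815.

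The mixtures with CTD gave similar estimates for Tlr7. THI + CTD rats had 0.554, 0.691, 0.468 and 0.861 CPM (log2 fold change -0.81, SE 0.30, adjusted p 0.135), and IMZ + CTD rats had 0.861, 0.624, 0.353 and 0.739 CPM (-0.80, SE 0.31, adjusted p 0.231). In each of these groups 2 of 4 rats lay under every control. THI rats, with 1.13, 0.826, 1.32 and 1.29 CPM, stayed within the control range (0.02, SE 0.28). IMZ rats had 1.196, 0.540, 1.03 and 1.19 CPM and THI + IMZ rats 0.726, 0.725, 0.648 and 0.929 CPM, with log2 fold changes of -0.18 (SE 0.29) and -0.56 (SE 0.30). Across the mean of the 6 treatments the log2 fold change was -0.54 (SE 0.19, unadjusted p 0.00739, edgeR adjusted p 0.0860; 0.0467 without CTD replicate 3). The test for a difference among the 6 treatments did not pass for Tlr7 (edgeR adjusted p 0.267), so a difference between CTD and THI in this gene is not shown. DESeq2's Wald test called Tlr7 in CTD, with an adjusted p of 0.0430, as did edgeR without CTD replicate 3, with an adjusted p of 0.0351. Over all alternatives the adjusted p of this comparison ranged from 0.0351 to 0.393.

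Tlr9, the receptor for CpG DNA, was at the limit of detection, with 103 reads in the 31 libraries together. The controls held 2 to 11 reads each, equal to 0.0543 to 0.211 CPM with a median of 0.119 CPM. The 3 CTD rats held 0, 0 and 1 reads, all under the lowest control. The limit that a count of 0 allows, 3 reads in a library, corresponds to 0.0775 to 0.0923 CPM in these 3 libraries and so lies within the control range.

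With 1 read in the CTD group against 57 in the controls, the ratio of summed Tlr9 reads per scaled library size was 0.0774, with an exact 95% interval of 0.00193 to 0.449 that covers counting error only. The edgeR adjusted p was 0.0770 (0.0424 without THI replicate 3 and 0.0375 in a fit of only CTD and control rats), and the fitted fold change at such counts depends on the prior count. In the other groups the reads per rat were 1, 0, 8 and 0 for THI, 5, 2, 2 and 5 for IMZ, 1, 0, 1 and 4 for THI + IMZ, 2, 5, 2 and 1 for THI + CTD, and 2, 0, 0 and 4 for IMZ + CTD. The ranges of all these groups overlapped that of the controls. In THI, however, 3 rats lay under every control and 1 above every control. Under every control lay also 3 rats each in THI + IMZ and THI + CTD, and 2 each in IMZ and IMZ + CTD. Over the mean of the 6 treatments the unadjusted p of Tlr9 was 0.00658 and the edgeR adjusted p 0.0804; DESeq2's Wald test gave 0.0478 and called it. In edgeR it was 0.0114 without THI replicate 3, 0.0467 without CTD replicate 3 and 0.0493 without IMZ + CTD replicate 4. Tlr9 lies wholly within the RefSeq span of Rpl29, a ribosomal protein gene on the same strand with a mean of 117 CPM, whose log2 fold change in CTD was 0.00 (SE 0.08).

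**Figure D2:**
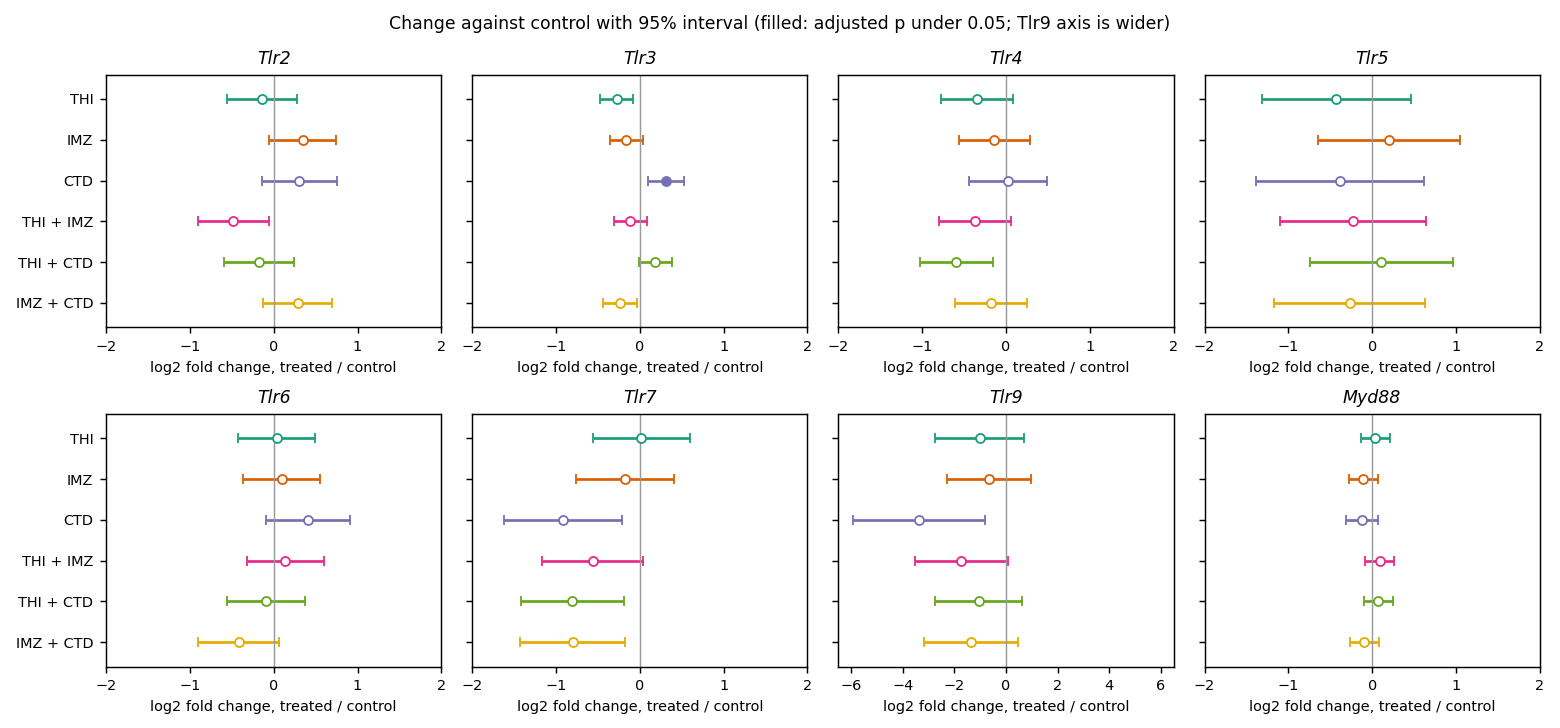
Log2 fold change of each gene against control (horizontal axis) in the 6 treatments (rows), with 95% intervals; filled points passed an adjusted p of 0.05, and the axis of Tlr9 is wider than the others. Only Tlr3 in CTD is filled; the CTD estimate of Tlr9 rests on 1 read.

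The cell surface receptors Tlr2, Tlr4, Tlr5 and Tlr6 did not pass the adjusted threshold in any treatment. Tlr2 ranged from 1.49 to 3.04 CPM in the controls (median 2.40). THI + IMZ rats had 1.80, 1.72, 1.40 and 1.75 CPM, a tight group in the lower part of the control range with 1 rat under it (log2 fold change -0.48, SE 0.21, unadjusted p 0.0287, edgeR adjusted p 0.373). IMZ rats had 3.55, 2.28, 2.94 and 3.05 CPM, IMZ + CTD rats 2.52, 2.67, 2.73 and 3.47 CPM and CTD rats 3.88, 1.76 and 3.01 CPM. Their log2 fold changes were 0.34 (SE 0.20), 0.29 (SE 0.20) and 0.31 (SE 0.22). THI and THI + CTD rats ranged from 1.43 to 2.78 CPM and from 1.38 to 2.48 CPM. The test among the 6 treatments gave an unadjusted p of 0.00780 and an edgeR adjusted p of 0.0883 for Tlr2, DESeq2's likelihood ratio test gave 0.0219, and edgeR without CTD replicate 2 gave 0.0347.

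Tlr4, the lipopolysaccharide receptor, was lowest in THI + CTD. Controls ranged from 2.87 to 4.73 CPM with a median of 4.01 CPM, and the THI + CTD rats had 2.17, 3.19, 2.19 and 2.86 CPM. Of these, 3 of 4 lay under every control. The log2 fold change was -0.59 (SE 0.21, 95% interval -1.03 to -0.16), with an unadjusted p of 0.00911 and an edgeR adjusted p of 0.115, and it was 0.0383 in a fit of only these 2 groups. The 3 CTD rats spread over 5.85, 2.35 and 3.81 CPM, from above the highest control to under the lowest. The THI, IMZ, THI + IMZ and IMZ + CTD means were 3.11 ± 0.576, 3.57 ± 0.351, 3.04 ± 1.09 and 3.48 ± 0.757 CPM (SD, n = 4 each), against 3.93 ± 0.623 CPM in the 8 controls.

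Tlr5, the flagellin receptor, was read 5 to 50 times per library, and rats of the same group differed widely. Controls ranged from 0.151 to 0.756 CPM, and the treated rats from 0.189 to 0.908 CPM. Its log2 fold changes lay between -0.43 (SE 0.44) in THI and 0.20 (SE 0.41) in IMZ, with 95% intervals from -1.38 to 1.05 over the 6 treatments. Tlr6, the partner of Tlr2, ranged from 1.28 to 2.31 CPM in the controls. Its estimates were highest in CTD (2.21, 2.02 and 3.08 CPM; log2 fold change 0.41, SE 0.24) and lowest in IMZ + CTD (1.200, 0.823, 1.82 and 1.64 CPM; -0.42, SE 0.24), with edgeR adjusted p-values of 0.316 and 0.485. The 4 other groups had means of 1.71 to 2.02 CPM against 1.83 ± 0.363 CPM in controls. Tlr6 is a close paralog of Tlr1 and Tlr10, and reads that matched several places in the genome were left out by the authors.

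Myd88, the shared adaptor, had nearly the same level in every group. Controls ranged from 22.6 to 31.6 CPM with a median of 24.7 CPM, and the 23 treated rats from 21.6 to 30.02 CPM with a median of 25.4 CPM. CTD rats had 22.97, 25.97 and 21.6 CPM. The log2 fold changes lay between -0.12 (SE 0.09, 95% interval -0.31 to 0.07) in CTD and 0.09 (SE 0.08, -0.08 to 0.26) in THI + IMZ. Myd88 shares 105 bases at its start with Acaa1a, a peroxisomal thiolase gene on the opposite strand, which had a mean of 313 CPM and fell by 0.56 in CTD on the log2 scale (SE 0.09, edgeR adjusted p 0.000115).

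In counts, 1 of 8 members passed the test in CTD, beside 12.7% of all tested genes. In the other treatments 0 of 8 passed in edgeR, beside 0.543% of all genes in THI, 0.251% in IMZ, 1.18% in THI + IMZ, 4.39% in THI + CTD and 1.46% in IMZ + CTD. At an unadjusted p under 0.05 the counts were 1 in THI, 0 in IMZ, 3 in CTD, 1 in THI + IMZ, 2 in THI + CTD and 2 in IMZ + CTD. The share of all tested genes under that unadjusted p was not counted. Such counts, here and for the comparisons and lists below, are therefore not set against all genes. DESeq2's Wald test called 2 members in CTD, Tlr3 and Tlr7, and 0 in each of the other 5 treatments. For the mean of the 6 treatments edgeR called 0 of 8, beside 5.74% of all genes, with 2 at an unadjusted p under 0.05. DESeq2's Wald test called 1 for that mean, Tlr9. The shares of all genes that DESeq2 called in CTD and for that mean are not given here.

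Ranges of treated and control rats did not overlap for 2 of 8 members in CTD, Tlr3 above and Tlr9 under the controls, beside 10.8% of all tested genes. No member was separated in this way in THI + CTD or IMZ + CTD, where 3.96% and 2.62% of all genes were. The median log2 fold change of the 8 members was -0.21 in THI, -0.12 in IMZ, -0.05 in CTD, -0.30 in THI + IMZ, -0.13 in THI + CTD and -0.25 in IMZ + CTD, beside medians of all genes between -0.07 and -0.01. These comparisons share the same 8 controls, so their signs are not independent of each other.

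Each mixture was also compared with the sum of its single compounds, weighted by dose (0.5 for THI and IMZ and 0.47 for CTD), on the log2 scale. The departures with the smallest unadjusted p were those of Tlr2 in THI + IMZ and of Tlr3 and Tlr6 in IMZ + CTD, all downwards, and none passed the adjusted threshold. Tlr2 in THI + IMZ lay -0.58 (SE 0.21) from the sum, with an unadjusted p of 0.00928 and an edgeR adjusted p of 0.574. In IMZ + CTD, Tlr3 lay -0.31 (SE 0.10, unadjusted p 0.00434, edgeR adjusted p 0.129) and Tlr6 -0.66 (SE 0.24, unadjusted p 0.0107, edgeR adjusted p 0.188) from it. By contrast, Tlr3 in THI + CTD lay 0.17 (SE 0.10) above its sum. edgeR called 0 of 8 members in each mixture, beside 0.0151% of all genes in THI + IMZ, 0.286% in THI + CTD and 1.16% in IMZ + CTD. With unadjusted p under 0.05 there were 1, 0 and 2 members, and DESeq2's Wald test called 0 in each.

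The other Toll-like receptor genes of the table, Tlr8, Tlr10, Tlr11 and Tlr12, did not pass in edgeR in any treatment. At an unadjusted p under 0.05 there were 3 in THI + CTD, 1 in IMZ + CTD and 0 in the other treatments, and DESeq2's Wald test called 1 in THI + CTD. Tlr8, another endosomal receptor for RNA, had its lowest estimates in THI + CTD (-0.60, SE 0.20, edgeR adjusted p 0.0913) and IMZ + CTD (-0.52, SE 0.21, adjusted p 0.259). The table did not hold Tlr1 or Tlr13 under these symbols. Of 13 co-receptors and chaperones of these receptors, 2 fell in CTD, beside 12.7% of all tested genes called in either direction, 2 fell in THI + CTD, beside 4.39%, and 0 passed in THI, IMZ, THI + IMZ and IMZ + CTD in edgeR or DESeq2, with 0, 2, 4 and 1 at an unadjusted p under 0.05. The 2 in CTD were Lbp, the carrier that hands lipopolysaccharide to Cd14 (51.2 CPM in controls and 29.97 CPM in CTD; -0.77, SE 0.24), and Hsp90b1, the chaperone that folds most Toll-like receptors (-0.48, SE 0.16). The 2 in THI + CTD were the lysosomal proteases Ctss (-0.59, SE 0.17) and Lgmn (-0.37, SE 0.11), which process endosomal receptors. Ctsb and Cd36, the list's most abundant genes without a call, had control means of 610 and 102 CPM.

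Of 22 tested adaptors, kinases and transcription factors downstream of the receptors, 4 passed in CTD, 1 upwards and 3 downwards, beside 12.7% of all tested genes. Irak1, the kinase recruited by Myd88, rose by a log2 fold change of 0.23 (SE 0.07), and it also rose in THI + CTD (0.28, SE 0.07). Ikbkb, a catalytic subunit of the IkB kinase (-0.29, SE 0.07), Traf6, the ubiquitin ligase that acts after Irak1 (-0.50, SE 0.16), and Irf5, a transcription factor of macrophages (-0.57, SE 0.18), fell in CTD. Irf5 also fell in THI + CTD (-0.55, SE 0.16), the 2 calls of that treatment being Irak1 and Irf5, beside 4.39% of all tested genes. Ikbkg, the regulatory subunit of the IkB kinase, rose in THI (0.44, SE 0.10) and THI + IMZ (0.47, SE 0.10). Irf7, which drives interferon genes, fell in THI + IMZ (-1.68, SE 0.36). These were the only calls of the list in THI and THI + IMZ, beside 0.543% and 1.18% of all tested genes. The medians of the list lay between -0.06 in CTD and 0.05 in THI + CTD, beside -0.07 and -0.03 for all genes. In IMZ and IMZ + CTD edgeR called 0 of 22, with 2 and 4 at an unadjusted p under 0.05 and 2 and 1 called by DESeq2.

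Of 13 regulators of the pathway, mostly negative, 3 passed in CTD, beside 12.7% of all tested genes. Tollip, which holds back Irak1, fell from 72.0 ± 2.96 CPM in controls to 51.0 ± 7.79 CPM (SD, n = 8 and 3; log2 fold change -0.50, SE 0.08, edgeR adjusted p 5.66e-05). Nfkbia, the NF-kB inhibitor and itself an NF-kB target, also fell (-0.62, SE 0.15), and Cyld, a deubiquitinase, rose (0.33, SE 0.10). Socs3 rose in THI + IMZ (1.59, SE 0.40), where the rats spread from 3.79 to 40.7 CPM, against 3.53 to 9.76 CPM in controls. It was the only regulator called there, beside 1.18% of all tested genes. No regulator passed in THI, IMZ, THI + CTD or IMZ + CTD in edgeR, where 2, 0, 1 and 2 had an unadjusted p under 0.05 and DESeq2 called 0, 0, 1 and 1.

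None of the 17 tested NF-kB target cytokines, chemokines and adhesion genes passed against control in edgeR in any treatment. The most abundant, the adhesion molecule Icam1 and the chemokine Cxcl11, had means of 22.8 ± 5.001 and 20.1 ± 1.63 CPM in the 8 controls and 29.5 ± 8.41 and 21.4 ± 1.154 CPM in the 3 CTD rats (SD). At an unadjusted p under 0.05 there were 5 targets in THI + CTD, 2 each in THI + IMZ and IMZ + CTD, 1 in THI and 0 in IMZ and CTD, and DESeq2 called 2 in THI + CTD and 0 elsewhere. The 6 tested genes of other receptors that signal through Myd88 and their ligands also had 0 calls in edgeR. Under an unadjusted p of 0.05 lay 2 of them in IMZ, 2 in THI + CTD and 1 in THI, while DESeq2 called 1 in IMZ and 1 in THI + CTD. Il33 and Il1rap, the alarmin and the shared interleukin 1 co-receptor, were close to the controls in CTD, at 202 against 202 CPM and 84.2 against 86.8 CPM.

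The interferon-stimulated genes, which act after the endosomal receptors as well as after interferon itself, were lower in THI + IMZ. Of 17 tested, 7 fell there, beside 1.18% of all genes called, and all 17 reached an unadjusted p under 0.05. The median log2 fold change was -0.98, beside -0.02 for all genes. The antiviral GTPase gene Mx2 had 3.52 to 7.48 CPM in the 4 THI + IMZ rats and 6.66 to 48.6 CPM in the 8 controls (-2.20, SE 0.45). Usp18, which restrains the interferon response, had 0.967 to 2.34 CPM against 2.02 to 10.6 CPM (-2.17, SE 0.46). Both ranges overlapped that of the controls, which spread widely in these genes. In CTD 2 of 17 fell, Stat2 (-0.56, SE 0.10) and Ifi27 (-0.59, SE 0.14), beside 12.7% of all tested genes called. edgeR called 0 in THI, IMZ, THI + CTD and IMZ + CTD, with 0, 1, 2 and 10 at an unadjusted p under 0.05 and 0, 0, 0 and 1 called by DESeq2. No member passed the test in THI + IMZ.

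Few of these pathway calls held whichever rat was left out. Of 26 calls of pathway genes against control, 4 held in each of the 31 fits without 1 rat, namely Tollip and Stat2 in CTD and Mx2 and Usp18 in THI + IMZ. The least stable, Lgmn in THI + CTD and Ikbkg in THI, were called in 11 and 12 of the 31 fits. All 26 were called by DESeq2. With the replicate number as a block 5 were called, all of them in CTD (Ikbkb, Tollip, Nfkbia, Stat2 and Ifi27). None of the interferon-stimulated calls in THI + IMZ held with this block. There the edgeR adjusted p was 0.0924 for Mx2 and 0.154 for Usp18.

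**Figure D3:**
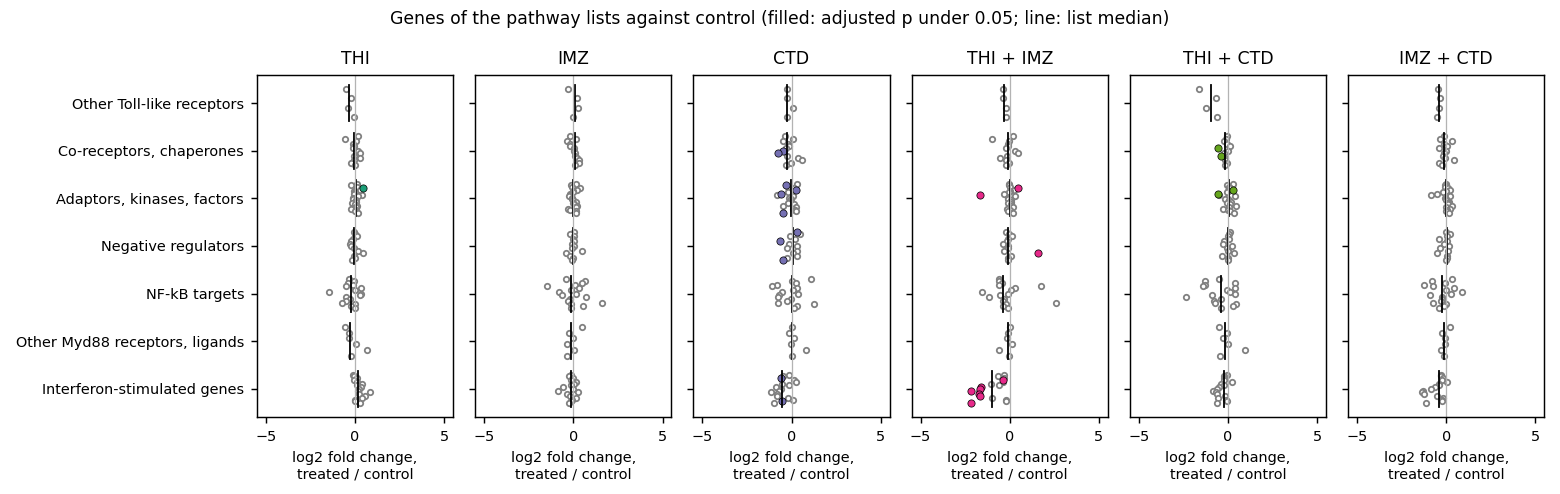
Log2 fold change against control (horizontal axis) of the genes in 7 pathway lists (rows) for each treatment (panels); filled points passed an adjusted p of 0.05 and black lines are list medians. The 7 filled interferon-stimulated genes in THI + IMZ lie under 0, and the lists of NF-kB targets and other Myd88 receptors have no filled point.

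Several markers of macrophages fell in CTD and THI + CTD, where 10 and 14 of the 14 listed had a fold change below 0. The median log2 fold change of the list was -0.34 and -0.45, beside -0.07 and -0.03 for all genes. The share of all tested genes below 0 was not counted. Counts of markers below 0, here and for the cell types that follow, are therefore not set against all genes. Of 14 Kupffer cell and macrophage markers, 5 fell in CTD (C1qa, C1qb, C1qc, Cd68 and Csf1r) and 6 fell in THI + CTD (Cd163, C1qa, C1qb, C1qc, Mrc1 and Csf1r), beside 12.7% and 4.39% of all tested genes called, and 0 passed in THI, IMZ, THI + IMZ and IMZ + CTD in edgeR, with 0, 0, 5 and 5 at an unadjusted p under 0.05 and 0, 0, 1 and 0 called by DESeq2. Their summed level was 736 to 1091 CPM in controls, 581 to 868 CPM in CTD and 597 to 763 CPM in THI + CTD, and none of the 14 was at 0 in any group. Tlr2 and Tlr4 had log2 fold changes of 0.31 (SE 0.22) and 0.03 (SE 0.23) in CTD, and -0.18 (SE 0.20) and -0.59 (SE 0.21) in THI + CTD. The part of cell composition in the values of Tlr2, Tlr4, Tlr7 and Irf5 was not tested.

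Dendritic cell markers summed to 14.6 to 23.1 CPM in controls and 10.1 to 14.2 CPM in CTD. There 2 of 8 fell, Irf8 and Zbtb46 (-0.82, SE 0.17, and -0.67, SE 0.15), beside 12.7% of all tested genes called, and 6 of 8 had a fold change below 0. Irf8 also fell in THI + CTD (-0.51, SE 0.15), 1 of 8 called there, beside 4.39% of all tested genes. T and NK cell markers summed to 18.2 to 28.0 CPM in controls and 14.2 to 18.4 CPM in THI + CTD. There 1 of 10 tested, Cd4, was called (-0.56, SE 0.12), beside 4.39% of all tested genes, and 7 had a fold change below 0. Which cells carried the Cd4 RNA was not tested. B and plasma cell markers summed to 0.816 to 1.94 CPM in controls and 0.258 to 1.20 CPM in CTD, and monocyte and neutrophil markers to 3.83 to 8.05 and 4.28 to 7.15 CPM. In either list edgeR and DESeq2 called 0 markers in CTD, with 1 and 0 at an unadjusted p under 0.05, and 1 marker of each list was at 0 in all 3 CTD rats. Of 9 endothelial markers, 2, Kdr and Tek, fell in CTD and in THI + CTD, beside 12.7% and 4.39% of all tested genes called. In these treatments 6 and 9 of the 9 had a fold change below 0. Of 8 stellate cell and fibroblast markers 2 passed in each of these treatments, beside the same shares of all tested genes. Reln fell in both, Col3a1 rose in CTD and Col1a1 rose in THI + CTD. Of 8 hepatocyte markers 0 passed in CTD in edgeR or DESeq2, with 0 at an unadjusted p under 0.05. Apoa1 rose in THI + IMZ (0.85, SE 0.18), 1 of 8 called there, beside 1.18% of all tested genes. Of 24 marker calls, 6 held in each of the 31 fits without 1 rat: C1qc, Mrc1 and Cd4 in THI + CTD and Irf8, Zbtb46 and Kdr in CTD.

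**Figure D4:**
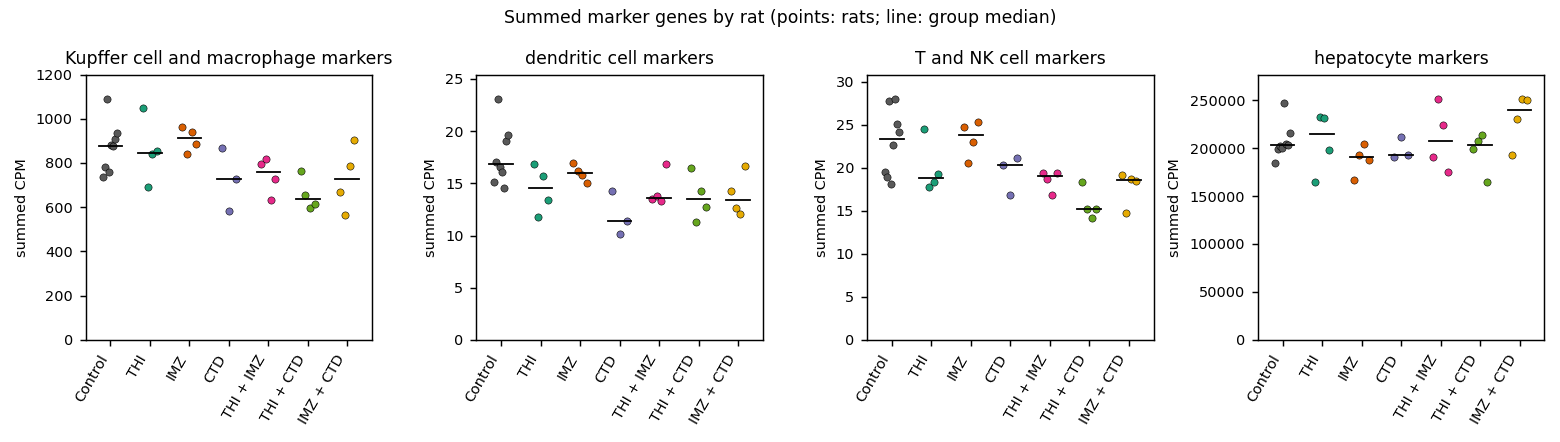
Summed CPM of the marker genes of 4 cell types in each of the 31 rats by group; points are rats, lines are group medians and each vertical axis starts at 0. The macrophage markers have medians of 879 CPM in controls and 635 CPM in THI + CTD, and the hepatocyte markers medians of 202790 and 203173 CPM.

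Within the groups, rats with more macrophage marker RNA had more Tlr2 and Tlr4 RNA. For each of the 31 rats, log2 CPM of a gene and the mean log2 CPM of a marker list were taken as deviations from the group mean, and rats were permuted 100000 times within groups (2-sided). Tlr2 correlated with the macrophage list with a Pearson r of 0.75 and a Spearman rho of 0.68. The permutation p-values were 1e-05, the smallest these permutations can give, and 0.00041, and 0.00064 and 0.0262 after Benjamini-Hochberg adjustment over the 64 relations of 8 genes with 8 lists. Without the 2 rats farthest from the median of the markers r was 0.76.

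For Tlr4 and the macrophage list r was 0.69 and rho 0.62 (permutation p 0.00024 and 0.00157, adjusted 0.00768 and 0.0462), and r was 0.65 without the 2 farthest rats. Tlr7 was correlated with the T and NK cell list (r 0.56, rho 0.53, permutation p 0.00198 and 0.00361, adjusted 0.0253 and 0.0462), with r 0.55 without the 2 farthest. Tlr2 with the T and NK cell list (r 0.66, rho 0.57) and Tlr5 with the stellate cell and fibroblast list (r 0.64, rho 0.61) passed as well, with permutation p-values of 0.00114 and 0.00316, and 0.00163 and 0.00285, adjusted values of 0.0243 and 0.0462, and 0.0253 and 0.0462, and r of 0.59 and 0.68 without the 2 farthest rats. These 5 relations were those that passed on both measures. The relation of Tlr3 to the macrophage list did not pass (r 0.19, rho 0.22, permutation p 0.311 and 0.274, adjusted 0.593 and 0.605, r 0.16 without the 2 farthest), and neither did that of Myd88 (r -0.13, rho 0.02, permutation p 0.527 and 0.931, adjusted p above 0.7 for both, r -0.23 without the 2 farthest). Both quantities of each pair were measured in the same library, and no batch was given by the labels.

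The genes most like each member over the 31 rats were those with the highest Pearson r of log2 CPM among named genes with a mean log2 CPM above 0. Tlr7 was followed by Naip5 (r 0.80), a sensor of bacterial flagellin, Inpp5d (0.79), a phosphatase of blood cells, and Irf5 (0.77). Tlr4 was followed by Cybb (0.70), the catalytic subunit of the phagocyte oxidase, Igsf6 (0.67) and Anxa3 (0.66), and Tlr2 by Akr1b1 (0.76), Unc119 (0.76) and Cyba (0.75), another subunit of the phagocyte oxidase. Tlr3 was followed by Fam188a (0.73), Tmem123 (0.71) and Nadk2 (0.71), a mitochondrial NAD kinase. Myd88 was followed by Fgf21 (0.72), a hormone made by hepatocytes, Zfp553 (0.70) and Csnk1g2 (0.68). For Tlr5 the closest were Tbc1d2b, Tab1 and Lzic (0.65 to 0.68), for Tlr6 Fcf1, Hnrnpr and Cenpj (0.57 to 0.62) and for Tlr9 Tas1r1, Nrtn and Megf11 (0.64 to 0.66). These values were the highest of many and carry no test. With deviations from the group means in place of the levels, the closest gene to Tlr7 was again Naip5 (0.82), while the closest to Tlr2 was Nckap1l (0.87), to Tlr4 Marco (0.71), a macrophage scavenger receptor, and to Tlr3 Mut (0.77).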

How the data were processed

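Total RNA libraries (TruSeq Stranded Total RNA) of 31 livers were grouped by the labels. Per the labels and methods, the authors trimmed reads with Skewer, aligned them to Rnor_5.0 with STAR 2.5.2b, kept those with a single position, checked them with FastQC 0.11.5 and deposited raw counts per gene; the annotation release and the strand setting are not given in the sources used here. A second deposited table holds a normalised signal, the counts divided by a DESeq2 size factor (the authors used DESeq2 1.15.1), and served as a check only: all 617024 values matched within 1e-09. Within groups, no 2 libraries agreed within sampling noise.

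Genes with a summed count of at least 2 were tested in edgeR 4.0.16 (R 4.3.3, TMM, 1 mean per group, quasi-likelihood F tests), checked on simulated data. The study used DESeq2; DESeq2 1.42.0 is an alternative here. CPM used TMM-scaled library sizes, and log2 CPM a prior count of 2. Intervals and floors on single counts cover counting error only. Alternatives changed the size factors, the test, the filter, the samples fitted, the quasi-likelihood method, the depth (31820322 reads), the replicate block and the dose weights, and left out each rat. The members and gene lists were chosen with earlier results of these data known. Named were all members, up to 5 called genes of each pathway list (3 of each marker list) by adjusted p, and 2 uncalled genes by mean CPM. Traf6, the called genes beyond these limits and the overlapping genes were named after their values were seen. Nos2, on 2 rows, was left out, and older symbols were matched through RefSeq. Levels per kilobase were not computed, as transcript lengths of the build were not used here.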

Additional observations from a re-analysis of the deposited data

Results flagged for a closer look

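Among 48 groups of 4 or 8 rats examined for a rat far from the others (8 genes in 6 groups, the 3 CTD rats not being examined), 2 were found, and chance gives about 1 in 20. THI + IMZ replicate 4 had 0.908 CPM of Tlr5, the highest value of its group, from 43 reads, while the other 3 rats had 0.215 to 0.259 CPM. THI replicate 3 had 0.221 CPM of Tlr9 from 8 reads, while the other 3 THI rats had 0, 0 and 1 reads. Tlr3 differed among the 6 treatments by the test of that difference (edgeR quasi-likelihood, adjusted p 0.00358), with group means from 28.6 CPM in THI to 43.1 CPM in CTD.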

How the results depend on the processing

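Of the 8 members, edgeR called 1 in CTD (Tlr3). DESeq2's Wald test called 2 (Tlr3 and Tlr7), a fit of only the groups compared called 2 (Tlr3 and Tlr9), and leaving out 1 rat gave 0 to 2. Tlr3 in CTD was called in 23 of 31 fits without 1 rat and in 7 of 8 other alternatives. For THI + CTD the count of 0 became 1 (Tlr4) in a fit of only the groups compared. For the mean of the 6 treatments the count of 0 became 1 (Tlr9) with DESeq2's Wald test and with the other quasi-likelihood method, and was 0 to 2 without 1 rat. The 2 came without CTD replicate 3 (Tlr7 and Tlr9), and Tlr9 was called without THI replicate 3 or IMZ + CTD replicate 4. The difference among treatments, 1 call (Tlr3), became 2 (Tlr2 and Tlr3) with DESeq2's likelihood ratio test and was 1 to 2 without 1 rat, the 2 coming without CTD replicate 2; Tlr3 was called in all of these fits. The counts of the other 7 comparisons did not change.

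With the replicate block the CTD count was 0 (Tlr3 0.33, adjusted p 0.136). The labels' replicate numbers were not taken to pair the rats: deviations of 78 same-numbered pairs had a median r of 0.02, with 20 pairs above 0.1, and 326 other-numbered pairs a median r of -0.0093, with 55 above 0.1. Under the replicate block, these uncalled estimates changed sign: Myd88 to -0.040 in THI and -0.0016 in THI + CTD, Tlr5 to 0.043 in CTD, 0.0036 in THI + IMZ, 0.085 in IMZ + CTD and 0.17 for the mean of treatments, and Tlr6 to 0.075 in THI + CTD. Thinned to the smallest library, Tlr2 was -0.0095 for the mean of treatments. Without 1 rat, uncalled estimates that crossed 0 ranged as follows: Tlr2 in THI -0.29 to 0.012, Tlr6 in THI -0.11 to 0.16, Tlr7 in THI -0.068 to 0.16, Tlr7 in IMZ -0.28 to 0.020, Tlr4 in CTD -0.36 to 0.30, Tlr5 in THI + CTD -0.062 to 0.24, Tlr6 in THI + CTD -0.37 to 0.057, Tlr2 for the mean of treatments -0.050 to 0.087, Tlr6 for the mean of treatments -0.035 to 0.086, Myd88 for the mean of treatments -0.044 to 0.029.

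The cause of these changes was not tested. The planned order of the members' levels per kilobase was not run. Over all genes, calls rose with DESeq2 from 108 to 202 in THI, 50 to 150 in IMZ, 235 to 432 in THI + IMZ, 873 to 1386 in THI + CTD, 290 to 595 in IMZ + CTD and 1159 to 2442 among treatments, and against the dose-weighted sums from 3 to 54, 57 to 172 and 230 to 614. The block lowered them to 45, 23, 53, 348, 80 and 940, and in CTD from 2518 to 1571 and for the mean of treatments from 1143 to 240. filterByExpr gave 391 for the sum of IMZ + CTD, a fit of only the groups compared gave 93 in IMZ, and leaving out CTD replicate 1 gave 1470 in CTD and 553 among treatments. Depth limits Tlr5 and Tlr9 most, with at most 50 and 11 reads in a library.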
